A study of Homo sapiens with 3 samples.

Results

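The cyclins, the cyclin-dependent kinases (CDKs) that bind them, and the E2F and RB proteins that set the S-phase programme were examined as 1 gene module in sarcospheres of the human osteosarcoma cell line MNNG/HOS. The module was defined as 36 listed genes. Of these, 33 had at least 1 named feature on the array, out of 14836 named genes in all, and CCND2, CCNE2 and E2F6 were not analysed here. MNNG/HOS is a chemically transformed derivative of the HOS osteosarcoma line, and sarcospheres are the floating spheres that its cells form in serum-free medium. Every culture grew for 5 days in serum-free DMEM/F12. The first culture received nothing further, the next received TGF-beta1 at 4 ng/mL, and the last was held under hypoxia, whose oxygen level was not stated. Each condition is a single culture of a single line, hybridised to 1 NimbleGen one-colour array.

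Progress through the cell cycle is driven by cyclins that activate CDKs in turn. D-type cyclins with CDK4 and CDK6 begin to phosphorylate the RB family of pocket proteins in G1, cyclin E with CDK2 completes it, and cyclins A and B with CDK2 and CDK1 carry the cell through S phase and into mitosis. Pocket proteins hold E2F transcription factors in check, and E2F factors released from them switch on genes of DNA synthesis, among them several E2F and RB family genes themselves. In epithelial cells TGF-beta is known for halting the cycle in G1, whereas many mesenchymal and tumour cells escape that arrest.

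The values are the authors' deposited intensities on a linear scale. A gene's value is the mean of the log2 intensities of its features, printed here as an intensity, and a difference is given on the log2 scale between 2 arrays. A gene was called higher or lower where the difference reached 1.5-fold (0.585 on the log2 scale) and the brighter array stood at or above its own median gene value, which was 409.6 for the untreated, 402 for the TGF-beta1 and 427 for the hypoxia array. With 1 array per condition there is no replicate error and no test, so each call describes these 3 cultures. A yardstick from within the arrays is the agreement of 2 features of the same gene. Among 585 such genes past the filter, the TGF-beta1 differences of the 2 features lay a median of 0.23 apart, and in 10% of genes more than 0.67 apart. For hypoxia the corresponding values were 0.30 and 0.76 over 575 genes. This yardstick holds real differences between transcripts and leaves out the spread between cultures.

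The labelled cell line was checked against markers. Vimentin (VIM), SPARC, fibronectin (FN1), RUNX2, COL1A1 and NT5E passed the filter, while the osteoblast alkaline phosphatase ALPL and the surface protein THY1 were dim on every array, between 56.1 and 77.5. None of the 13 measured markers of blood, endothelial, epithelial, liver and neuronal cells reached the median on any array, with values from 50.2 to 296. Their summed intensity was 1310 on the untreated, 1287 on the TGF-beta1 and 1319 on the hypoxia array.

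Promoter sequences are shown for 7 members, chosen because they carry the elements through which E2F, B-MYB and the pocket proteins are known to act, or because their gene was among those that differed. They come from a table of RefSeq promoters (GRCh38.p14) in which 27 of the 36 listed genes were matched, and each runs from 250 bases before to 50 bases after the annotated start. Both strands were searched for 4 motifs. The E2F element was taken as TTGGCGC and its variants, which were TTGCCGC, then also TTCGCGC, and last of all TTCCCGC. The cell-cycle homology region (CHR) was taken as TTTGAA, the NF-Y box as CCAAT, and the core of the HIF-binding element as ACGTG. Capitals mark the E2F element and CCAAT in E2F1, the E2F element in RBL1, all but the HIF core in CDK1, the CHR and CCAAT in CCNB2, CKS1B and CKS2, and the HIF core in CDK4.
E2F1, chr20:33686336-33686635, minus strand: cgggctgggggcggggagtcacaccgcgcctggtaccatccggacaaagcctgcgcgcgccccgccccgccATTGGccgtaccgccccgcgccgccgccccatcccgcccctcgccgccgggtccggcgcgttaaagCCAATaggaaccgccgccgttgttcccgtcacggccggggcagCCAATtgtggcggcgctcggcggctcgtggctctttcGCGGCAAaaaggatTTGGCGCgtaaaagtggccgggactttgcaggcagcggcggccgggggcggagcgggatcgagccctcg
RBL1, chr20:37095948-37096247, minus strand: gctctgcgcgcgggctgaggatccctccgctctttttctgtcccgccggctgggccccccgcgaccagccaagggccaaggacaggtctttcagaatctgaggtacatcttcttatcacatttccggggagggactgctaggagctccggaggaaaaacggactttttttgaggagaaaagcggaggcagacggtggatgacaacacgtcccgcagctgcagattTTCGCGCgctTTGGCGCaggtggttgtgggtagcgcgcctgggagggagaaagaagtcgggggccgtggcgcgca
CDK1, chr10:60778081-60778380, plus strand: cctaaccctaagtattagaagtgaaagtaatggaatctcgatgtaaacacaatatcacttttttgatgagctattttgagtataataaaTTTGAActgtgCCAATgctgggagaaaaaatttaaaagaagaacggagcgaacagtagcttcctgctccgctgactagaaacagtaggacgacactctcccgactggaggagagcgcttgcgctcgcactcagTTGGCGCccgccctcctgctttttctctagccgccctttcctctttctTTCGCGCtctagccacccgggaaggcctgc
CCNB2, chr15:59104896-59105195, plus strand: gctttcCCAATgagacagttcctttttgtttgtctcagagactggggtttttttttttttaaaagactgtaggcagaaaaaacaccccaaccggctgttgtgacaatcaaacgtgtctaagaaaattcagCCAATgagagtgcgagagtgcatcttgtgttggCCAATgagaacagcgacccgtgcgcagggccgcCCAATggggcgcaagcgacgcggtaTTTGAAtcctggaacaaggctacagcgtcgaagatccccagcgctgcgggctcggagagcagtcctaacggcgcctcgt
CKS1B, chr1:154974431-154974730, plus strand: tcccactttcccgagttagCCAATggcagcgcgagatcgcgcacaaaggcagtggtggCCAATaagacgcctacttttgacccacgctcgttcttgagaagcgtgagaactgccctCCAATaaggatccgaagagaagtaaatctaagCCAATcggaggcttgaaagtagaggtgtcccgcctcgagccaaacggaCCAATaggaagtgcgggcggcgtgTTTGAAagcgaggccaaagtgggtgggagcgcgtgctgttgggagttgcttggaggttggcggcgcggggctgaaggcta
CKS2, chr9:89310945-89311244, plus strand: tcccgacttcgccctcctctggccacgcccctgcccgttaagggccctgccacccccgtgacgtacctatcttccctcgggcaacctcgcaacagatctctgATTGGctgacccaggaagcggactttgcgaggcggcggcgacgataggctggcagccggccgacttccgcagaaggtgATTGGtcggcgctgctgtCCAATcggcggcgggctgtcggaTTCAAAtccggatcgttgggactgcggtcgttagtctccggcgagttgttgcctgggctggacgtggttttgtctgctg
CDK4, chr12:57752261-57752560, minus strand: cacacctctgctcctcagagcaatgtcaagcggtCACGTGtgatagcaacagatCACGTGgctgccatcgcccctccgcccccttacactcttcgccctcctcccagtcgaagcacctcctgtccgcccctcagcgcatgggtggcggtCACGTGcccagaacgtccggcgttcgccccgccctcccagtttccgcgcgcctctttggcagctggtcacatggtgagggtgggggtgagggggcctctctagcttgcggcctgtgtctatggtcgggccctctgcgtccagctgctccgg
E2F1 had E2F elements starting 33 and 19 bases before the start, RBL1 25 and 15 bases before it, and CDK1 28 bases before and 21 bases into the gene. CCNB2, CKS1B and CKS2 shared a spacing with a CCAAT box 25, 24 and 23 bases ahead of a CHR, which itself began 29, 30 and 29 bases before the start. In CKS2 the CHR lies on the other strand and is printed as TTCAAA. CDK4 held ACGTG only as part of the palindrome CACGTG, which counts once on each strand.

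With TGF-beta1 the module was brighter than in the untreated culture. Over all 33 measured genes the median log2 difference was 0.51 (1.42-fold), against -0.003 over all 14836 genes. Of the 33, 28 were brighter, beside 49.7% of all genes. Past the filter were 29 members, of which 14 were higher, 0 lower and 15 within 1.5-fold. Over all genes past the filter 12.6% were called higher and 11.5% lower. Some members passed only because their TGF-beta1 value was high. Among the 23 members at or above the median on both arrays, 9 were higher and 0 lower, beside 9.56% and 8.03% of all genes under that filter. At 2-fold 5 members were higher, PKMYT1, CKS2, E2F1, RBL1 and CDK1, where 3.25% of all genes were higher and 3.86% lower. Of these, PKMYT1, E2F1 and RBL1 passed the filter only through the TGF-beta1 array, and CKS2 and CDK1 on both arrays. In a bulk RNA sample a larger share of dividing cells and more RNA of these genes per cell cannot be told apart.

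**Figure D1:**
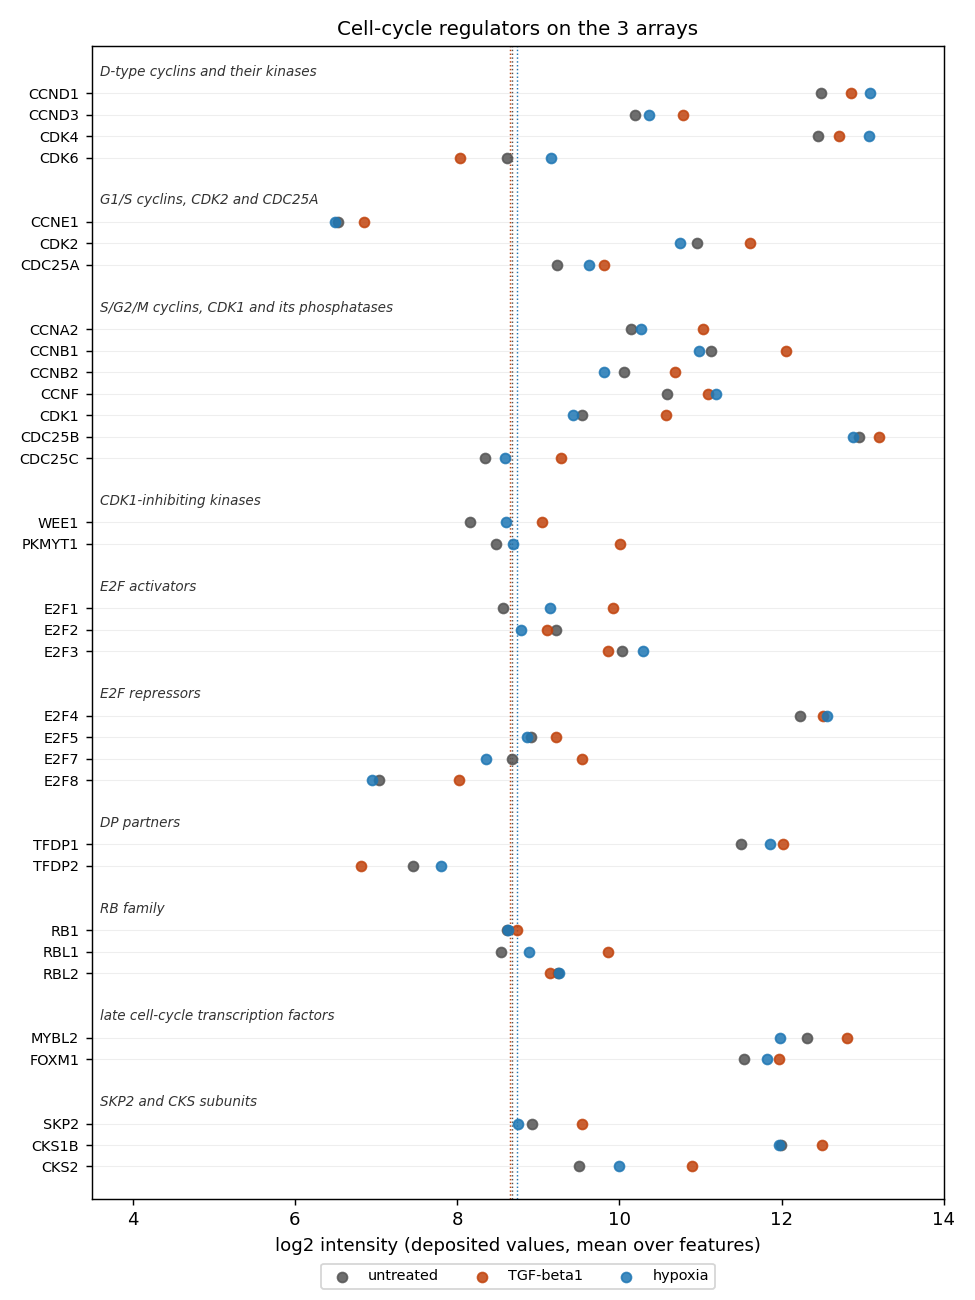
Log2 intensity (x axis) of each of the 33 measured cell-cycle regulators (y axis, by role) on the untreated (grey), TGF-beta1 (orange) and hypoxia (blue) array, 1 point per array. Dotted lines mark each array's median gene value. The TGF-beta1 point is the rightmost for 24 of the 33 genes; levels of different genes are not comparable.

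TGF-beta1 had the brightest value for 24 of the 33 genes (72.7%), where it was the brightest array for 35.3% of all genes. Hypoxia was brightest for 8 members and the untreated array for 1, E2F2.

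The D-type cyclins and their kinases did not all differ one way with TGF-beta1. Cyclin D1 (CCND1), the growth-factor-dependent starter of the cycle, stood at 5721 untreated, 7377 with TGF-beta1 and 8748 under hypoxia. Its kinase CDK4 had the same order, at 5563, 6676 and 8616. Both were thus brightest under hypoxia, by 0.61 and 0.63 over the untreated array, and TGF-beta1 lay between at 0.37 and 0.26. CDK6, the other partner of D-type cyclins, went apart with TGF-beta1. It stood at 393 untreated, 262 with TGF-beta1 and 569.7 under hypoxia, so that the difference was -0.58 with TGF-beta1, below the filter, and 0.54 under hypoxia. Cyclin D3 (CCND3) was brightest with TGF-beta1, at 1169, 1760.3 and 1324 in the same order (0.59 and 0.18), a TGF-beta1 call that sits at the threshold and was 0.53 after loess centring.

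At the G1/S boundary, CDK2, the kinase of cyclins E and A, stood at 1994 untreated, 3120.0 with TGF-beta1 and 1725 under hypoxia. Its 2 features both differed upward with TGF-beta1 but unequally, at 0.39 (NM_001798) and 0.90 (NM_052827), and both were lower under hypoxia at -0.20 and -0.22. CDK2 was thus called higher with TGF-beta1 by the mean of its features (0.65) and not by the brighter feature alone, and was 0.58, within 1.5-fold, after loess centring. CDC25A, the phosphatase that removes inhibitory phosphates from CDK2, stood at 599.8, 899 and 793, a TGF-beta1 difference of 0.58 that falls just short of the threshold and passed it after median centring (0.61) and quantile normalization (0.60). Cyclin E1 (CCNE1) was dim on all arrays, between 89.9 and 115, so its differences carry little weight.

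Of the 7 cyclins, kinase and phosphatase genes of S phase, G2 and mitosis, 5 were called higher with TGF-beta1, beside 12.6% of all genes, and the median difference was 0.89. With both arrays at or above the median 4 of 6 were higher, beside 9.56%. Cyclin B1 (CCNB1), the activator of CDK1 at mitotic entry, stood at 2248 untreated, 4237 with TGF-beta1 and 2014 under hypoxia. CDK1 stood at 745, 1527 and 692, and its 2 features gave TGF-beta1 differences of 1.10 (NM_001786) and 0.97 (NM_033379). In both genes the TGF-beta1 array stood alone while the other arrays lay close to each other. Cyclin A2 (CCNA2), which serves S phase and G2, had the same shape at 1128, 2090.1 and 1229, a TGF-beta1 difference of 0.89. Cyclin B2 (CCNB2), whose promoter is shown above, stood at 1065, 1650 and 898 (0.63), and was 0.58, within 1.5-fold, after loess centring. CDC25C, which activates CDK1, stood at 325, 619 and 386, and passed the filter through the TGF-beta1 array.

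The other genes of this group were within 1.5-fold with TGF-beta1. CDC25B, another CDK1-activating phosphatase, differed little, at 7925, 9402 and 7554. Cyclin F (CCNF), which is not a CDK activator but an F-box subunit of a ubiquitin ligase, stood at 1534, 2180.3 and 2344, brighter on both treated arrays, by 0.51 with TGF-beta1 and 0.61 under hypoxia.

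Both kinases that restrain CDK1 were called higher with TGF-beta1, as was CDK1 itself, beside 12.6% of all genes. PKMYT1, the membrane-bound kinase that phosphorylates CDK1, had the largest TGF-beta1 difference of the module, at 358 untreated, 1027 with TGF-beta1 and 414 under hypoxia (1.52, or 2.87-fold). WEE1, its nuclear counterpart, stood at 285, 530.4 and 388 (0.90). Both genes lay below the median on the untreated and hypoxia arrays. They were thus called with TGF-beta1 only through the TGF-beta1 array, and the hypoxia differences of 0.21 and 0.45 did not pass the filter.

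**Figure D2:**
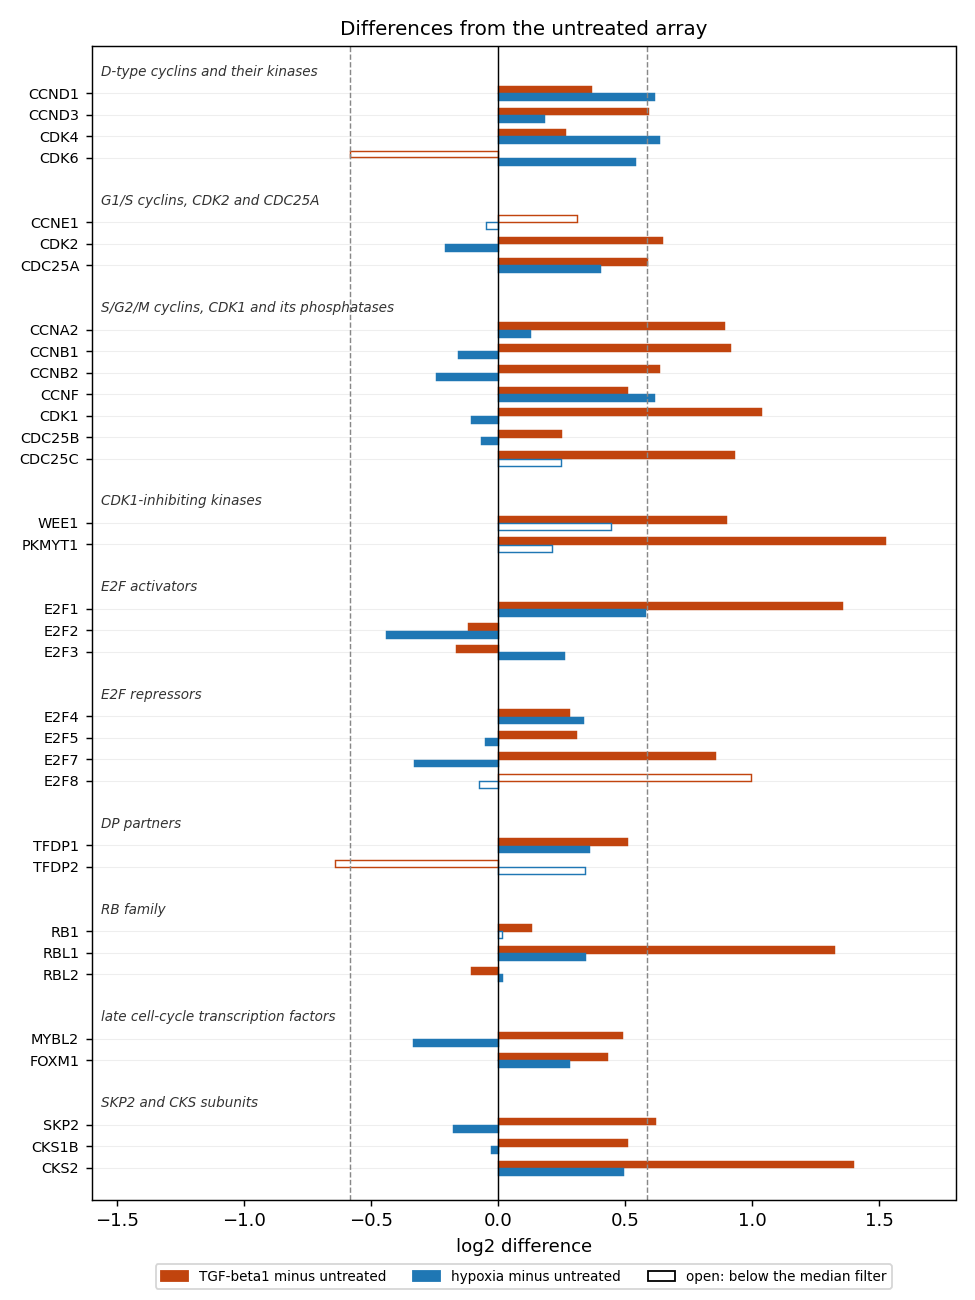
Log2 difference from the untreated array (x axis) for each cell-cycle regulator (y axis, by role), for TGF-beta1 (orange) and hypoxia (blue); open bars did not pass the filter on dim genes and dashed lines mark 1.5-fold. With TGF-beta1, 14 filled bars pass the line on the right, with PKMYT1 at 1.52, and under hypoxia 3 do, CCND1, CDK4 and CCNF.

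Among the 3 E2F activators only E2F1 was called with TGF-beta1, beside 12.6% of all genes higher. It passed the filter only through the TGF-beta1 array. E2F1 stood at 380.2 untreated, 970.2 with TGF-beta1 and 568 under hypoxia. E2F2 stood at 598, 550.4 and 440.1, and E2F3 at 1046, 931 and 1250.0. E2F1 was thus brighter on both treated arrays, by 1.35 and 0.58, while E2F2 and E2F3 were slightly dimmer with TGF-beta1, by -0.12 and -0.17, and parted under hypoxia, at -0.44 and 0.26.

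Of the 4 measured E2F repressors 3 passed the filter, and 1 of these, E2F7, was called higher with TGF-beta1, beside 12.6% of all genes. E2F7 and E2F8 are atypical repressors that bind DNA without a DP partner and are themselves E2F targets. E2F7 stood at 410.4 untreated, 742 with TGF-beta1 and 326 under hypoxia (0.85 and -0.33). Its untreated value only just reached that array's median of 409.6. E2F8 stood at 131, 261 and 124, with a TGF-beta1 difference of 0.99 that did not pass the filter. E2F4 and E2F5, which repress through pocket proteins, were within 1.5-fold with TGF-beta1: E2F4 stood at 4803, 5825 and 6047 (0.28), and E2F5 at 480.0, 594 and 463 (0.31). Neither DP partner was called with TGF-beta1. TFDP1 stood at 2905, 4130 and 3720 (0.51 with TGF-beta1), and the dim TFDP2 at 176, 113 and 223 (-0.64, below the filter).

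In the RB family 1 of the 3 members, RBL1, was called higher with TGF-beta1, beside 12.6% of all genes. It passed the filter only through the TGF-beta1 array. RBL1, which encodes p107 and is an E2F target, stood at 373 untreated, 932 with TGF-beta1 and 473 under hypoxia, and its features gave TGF-beta1 differences of 1.18 (NM_002895) and 1.46 (NM_183404). RB1, the retinoblastoma protein gene, stood at 392, 428 and 396. RBL2, which encodes p130, the pocket protein of resting cells, stood at 607, 564 and 613. RB1 and RBL2 thus differed by 0.13 and -0.11 with TGF-beta1 and by 0.01 each under hypoxia, and RBL1 by 1.32 and 0.34.

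The late transcription factors were brighter with TGF-beta1 by less than 1.5-fold. MYBL2 (B-MYB), which activates G2/M genes with the MuvB complex, stood at 5092 untreated, 7141 with TGF-beta1 and 4035 under hypoxia (0.49 and -0.34). FOXM1, which joins that complex later, stood at 2970, 3999 and 3603, and its features gave TGF-beta1 differences of 0.51 and 0.35.

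SKP2 is the substrate receptor of a ubiquitin ligase that marks the CDK inhibitor p27 for degradation, and the CKS proteins are small CDK-binding proteins. SKP2, CKS1B and CKS2 were each brighter with TGF-beta1, 2 of them past 1.5-fold, beside 12.6% of all genes called higher. CKS2 had a difference next in size to that of PKMYT1, at 725 untreated, 1908 with TGF-beta1 and 1019 under hypoxia (1.40, or 2.63-fold). Its paralogue CKS1B, the cofactor of SKP2, stood at 4074, 5793 and 3993 (0.51). The paralogues share the spacing of CCAAT box and CHR printed above, with the CHR on opposite strands, and only CKS2 passed 1.5-fold. SKP2 stood at 487, 747 and 430.1 (0.62), and its brighter feature alone gave 0.51 with TGF-beta1, within 1.5-fold. Its features disagreed under hypoxia, at 0.28 (NM_005983) and -0.64 (NM_032637), so its hypoxia value of -0.18 is not settled.

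Under hypoxia the module lay close to the untreated culture. The median difference over the 33 members was 0.18, against 0.04 over all genes. Of the members 20 were brighter and 13 dimmer, where 53.7% of all genes were brighter. Of 26 members past the filter, 3 were higher, 0 lower and 23 within 1.5-fold, beside 8.64% of all genes higher and 5.69% lower, so the members' share (11.5% higher) was near that of all genes. With both arrays at or above the median, 3 of 22 members were higher and 0 lower, beside 6.59% and 3.91% of all genes. The called genes were CCND1, CDK4 and CCNF, at 0.61, 0.63 and 0.61. All 3 lay within 1.5-fold when the arrays were centred on their median gene value, at 0.55, 0.57 and 0.55. No member reached 2-fold under hypoxia, where 1.65% of all genes were higher and 0.985% lower. All 4 measured D-type cyclins and kinases were brighter under hypoxia, from 0.18 to 0.63, beside 53.7% of all genes. Of the 7 genes of S phase, G2 and mitosis 3 were brighter and 4 dimmer, with a median of -0.07.

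**Figure D3:**
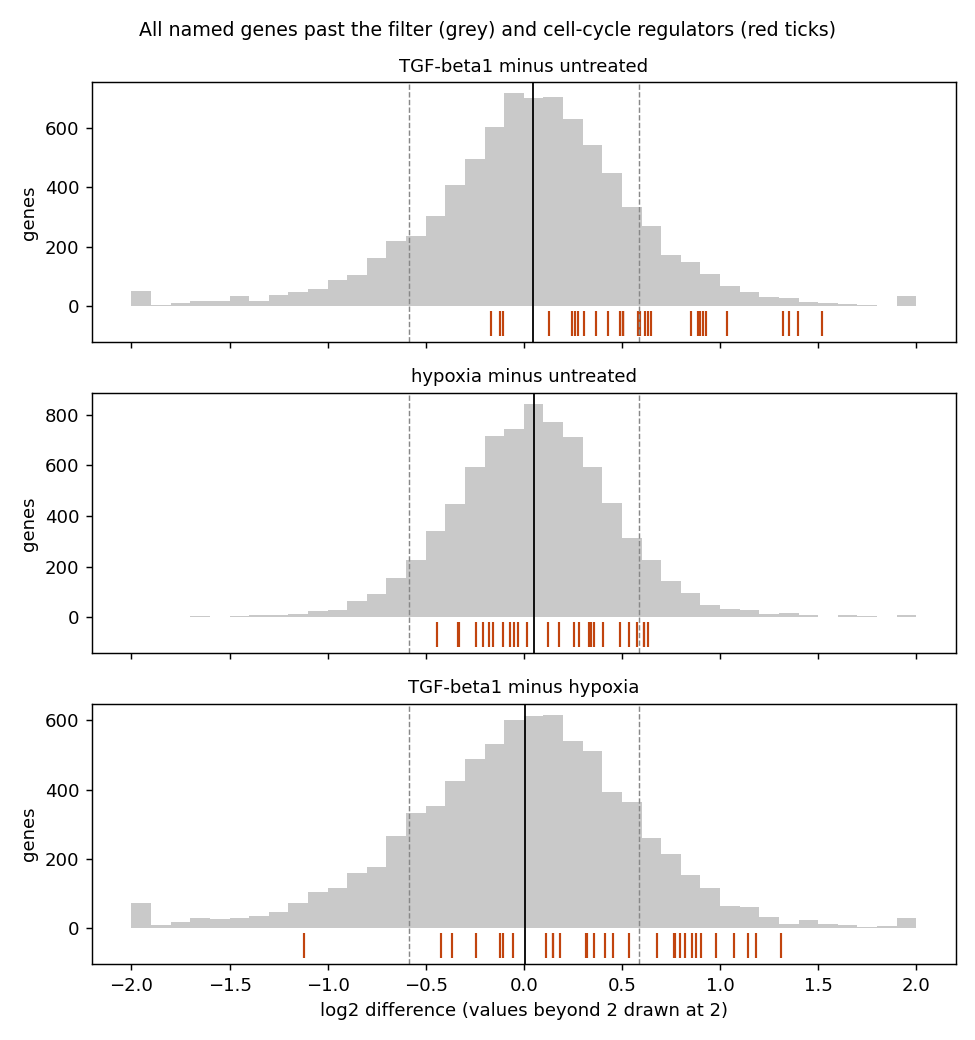
Number of named genes past the filter (y axis) by log2 difference (x axis, in bins, with values beyond 2 drawn at 2) in each of the 3 comparisons, with cell-cycle regulators past the filter as red ticks. The black line is the median of the grey genes and dashed lines mark 1.5-fold. For TGF-beta1 minus untreated 26 of 29 ticks lie right of the median, and for hypoxia minus untreated 14 of 26.

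The direct comparison of TGF-beta1 with hypoxia uses the same TGF-beta1 array and adds no independent observation. Of 30 members past the filter, 13 were higher with TGF-beta1, 1 lower and 16 within 1.5-fold, beside 13.2% and 15.3% of all genes. With both arrays at or above the median, 10 of 24 were higher and 0 lower, beside 10.9% and 11.7%. At 2-fold 4 were higher (PKMYT1, E2F7, CDK1 and CCNB1) and 1 lower, beside 3.26% and 5.73%. PKMYT1 and E2F7 passed the filter here only through the TGF-beta1 array. The member that was lower was CDK6, at 262 against 569.7 (-1.12, or 2.17-fold lower), and it passed only through the hypoxia array. The largest difference was again that of PKMYT1 (1.31), followed by E2F7 (1.18) and CDK1 (1.14). MYBL2 reached 1.5-fold here (0.82) and in neither comparison with the untreated array, since it was brighter with TGF-beta1 and dimmer under hypoxia.

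The genes that act with the module were taken from lists of the same pathway. Targets of E2F at G1/S had a median TGF-beta1 difference of 0.56 over 20 genes, and 9 of 19 past the filter were higher and 0 lower, beside 12.6% and 11.5% of all genes. RRM2, a ribonucleotide reductase subunit, stood at 606 untreated, 1458 with TGF-beta1 and 615 under hypoxia, and GINS2, a subunit of the replicative helicase, at 1425, 3039 and 1449. Targets of B-MYB and FOXM1 at G2/M had a median of 0.75, with 15 of 18 higher and 0 lower, beside the same shares. With both arrays at or above the median 12 of 15 were higher, beside 9.56% of all genes. MKI67, the Ki-67 antigen, stood at 914, 2278 and 1149, and TTK, a spindle checkpoint kinase that passed only through the TGF-beta1 array, at 214, 486 and 257. Under hypoxia the medians of these lists were 0.02 and 0.16. In the first list 1 gene was lower, the helicase subunit MCM4 (7026 untreated and 4287 under hypoxia), and 0 higher. In the second 17 of 17 were within 1.5-fold. Over all genes 8.64% were higher and 5.69% lower under hypoxia. In the second, CDC20 and KIF23 had hypoxia differences of 0.43 and -0.40.

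The anaphase-promoting complex is the ligase that destroys cyclins A and B. The list of its subunits and regulators had a median TGF-beta1 difference of 0.54 over 17 genes. Of 13 past the filter 5 were higher and 0 lower, beside 12.6% and 11.5% of all genes. These were the subunits ANAPC1 and ANAPC4 and the regulators CDC20, FBXO5 and UBE2C. ANAPC4 passed only through the TGF-beta1 array. With both arrays at or above the median 4 of 12 were higher, beside 9.56%. ANAPC1, the scaffold subunit of the complex, stood at 450.0 untreated, 952 with TGF-beta1 and 535 under hypoxia. FBXO5 (EMI1), an inhibitor of the complex and an E2F target, stood at 944, 1794 and 784. CDC20 and UBE2C belong both to this list and to that of the G2/M targets. Under hypoxia 13 of 13 were within 1.5-fold, with ANAPC4 at 0.56. Of the MuvB core and chromatin partners of RB, 1 of 5 past the filter was higher with TGF-beta1, beside 12.6% of all genes. With both arrays at or above the median 0 of 4 were. The median difference of this list was 0.11. The called gene was LIN9 (0.99, from 229 to 457), and LIN37 differed by 0.38. Under hypoxia 1 of 4 was lower, RBBP7 (-0.59), beside 5.69% of all genes, and RBBP4 differed by 0.28. LIN9 passed the filter only through the TGF-beta1 array, and RBBP7 sat at the threshold.

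**Figure D4:**
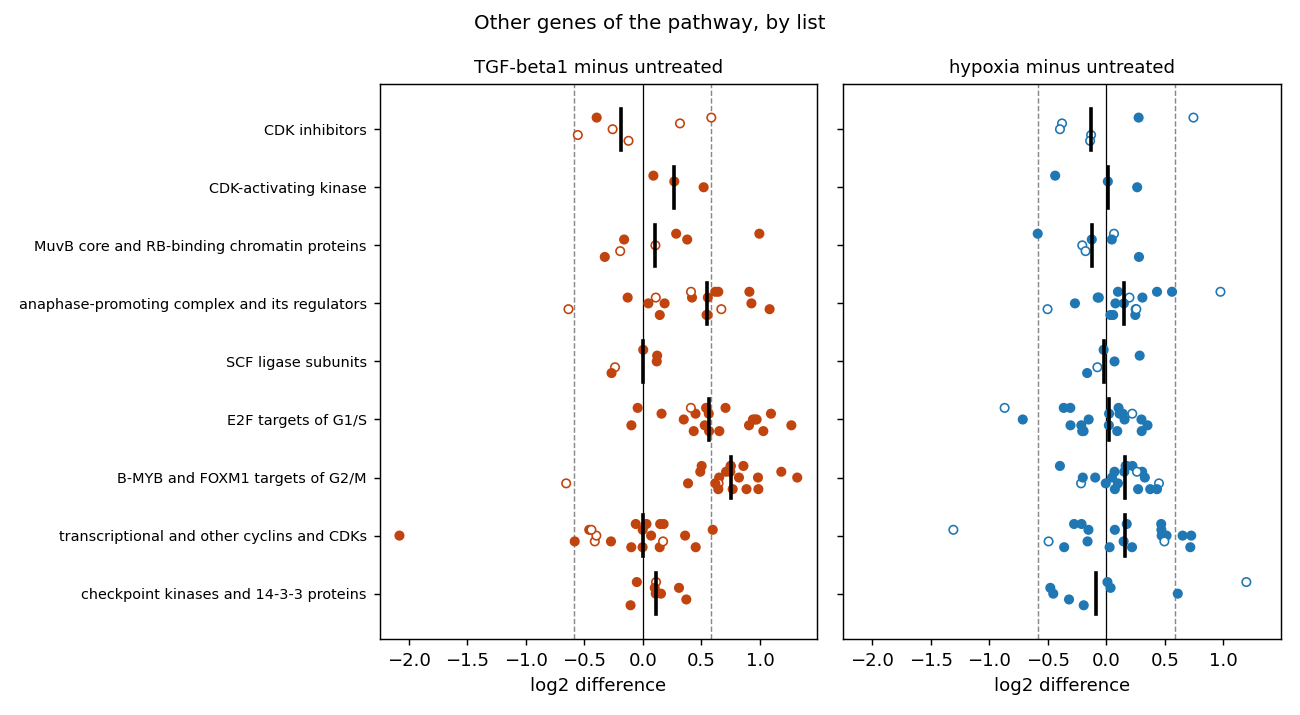
Log2 difference from the untreated array (x axis) of each gene in 9 lists of the same pathway (y axis), for TGF-beta1 (left) and hypoxia (right). Points are genes, open where they did not pass the filter, black bars are list medians and dashed lines mark 1.5-fold. The medians of the G1/S targets, the G2/M targets and the anaphase-promoting complex with its regulators lie at 0.56, 0.75 and 0.54 with TGF-beta1.

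The CDK inhibitors gave little to measure, since 1 of 6 passed the filter. CDKN1A (p21) stood at 4430.3 untreated, 3370.1 with TGF-beta1 and 5365 under hypoxia, differences of -0.39 and 0.28, and was called lower for TGF-beta1 minus hypoxia (-0.67), beside 15.3% of all genes. CDKN1B (p27) stood at 75.8, 94.3 and 58.3, near the lowest values of the table. The CDK-activating kinase had all 3 subunits within 1.5-fold in both comparisons, with MNAT1 at 0.52 and CCNH at 0.27 with TGF-beta1 and CDK7 at -0.44 under hypoxia. The SCF subunits other than SKP2 also stayed within 1.5-fold, with BTRC at -0.27 and CUL1 at 0.12 with TGF-beta1.

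Cyclins and CDKs that serve transcription or other tasks were brighter and dimmer in near-equal number with TGF-beta1. Their median difference was -0.002 over 20 genes. Of 16 past the filter 1 was higher, CDK8 (0.60, near the threshold), and 1 lower, CDK18, beside 12.6% and 11.5% of all genes. CDK18 stood at 409.8 untreated, 97.0 with TGF-beta1 and 585 under hypoxia, so it was dimmer with TGF-beta1 alone, and its untreated value only just met the median filter. Under hypoxia 3 of 17 were higher, CCNG2, CDK10 and CCNL1, beside 8.64% of all genes, and 2 of 15 with both arrays at or above the median, beside 6.59%. CCNG2, an unconventional cyclin of arrested cells that passed only through the hypoxia array, stood at 369, 280 and 609. The checkpoint kinases and 14-3-3 proteins had 0 of 7 genes called with TGF-beta1, beside 12.6% of all genes higher and 11.5% lower. CHEK2 and YWHAG differed by 0.37 and 0.31. Under hypoxia 1 of 7 was higher, YWHAZ at 0.61, beside 8.64% of all genes, with YWHAG at -0.48.

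Promoter motifs were counted in every matched promoter of the listed genes, not only in those shown. An E2F element was found in 12 of the 27 promoters of listed members (44.4%), against 13.1% of 27305 promoters in the table and 18.9% of the 11966 promoters of named genes. A CHR was found in 7 (25.9%), against 15.4% of all promoters and 10.7% of those of named genes. A CCAAT box was found in 12 (44.4%), against 35.7% and 36.7%, and the HIF core in 10 (37%), against 21.6% and 25%. A CCAAT box 20 to 30 bases ahead of a CHR was found in 4, CCNB2, CCNF, CKS1B and CKS2, against 0.381% of all promoters. This spacing was chosen after the sequences were seen.

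The E2F element occurred in members on both sides of the TGF-beta1 call. Of the members called higher with TGF-beta1, 11 had a promoter entry and 6 held the element (54.5%), and of the other members past the filter 5 of 12 did (41.7%). E2F2 and E2F3, which were slightly dimmer with TGF-beta1, each held it. CCND3, CCNA2, CCNB2, SKP2 and CKS2, which were higher, had no E2F element in this window. The lists of G1/S and G2/M targets are named for regulation through these elements, so their shares are a description. The E2F element was found in 13 of 16 promoters of the G1/S targets (81.2%) and 1 of 15 of the G2/M targets (6.67%), and the CHR in 1 of 16 and 10 of 15. Of the genes higher under hypoxia with a promoter entry, CDK4 and CCNF, CDK4 held the HIF core, only within the palindrome CACGTG. The core was also found in 25% of the promoters of named genes and in 10 of the 27 promoters of listed members. A match is only a run of letters, and binding was not measured.

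**Figure D5:**
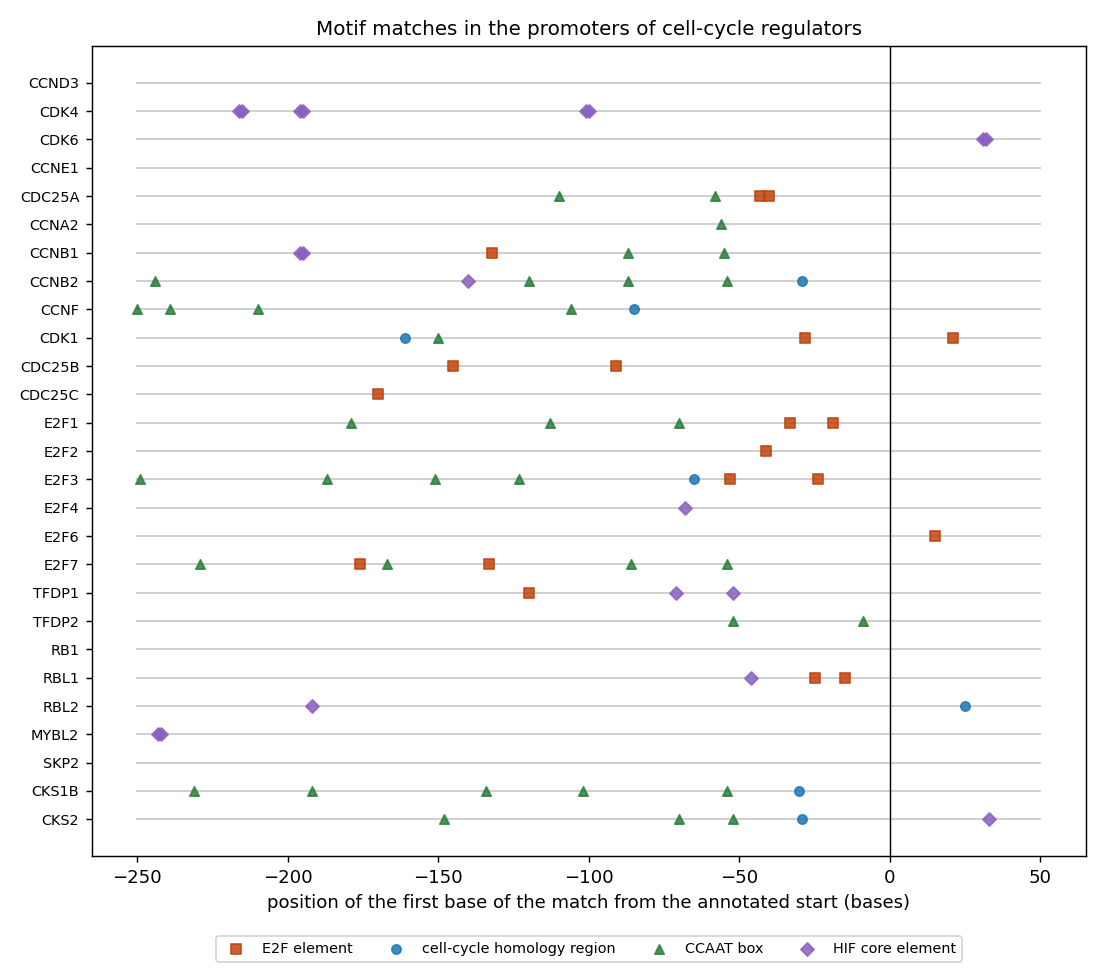
Matches to the 4 motifs in the promoters of 27 listed members (y axis), by the position of their first base from the annotated start (x axis, bases). Grey lines span the 250 bases before and 50 bases after the start. Blue circles (CHR) sit 29, 30 and 29 bases before the start in CCNB2, CKS1B and CKS2, each with a green triangle (CCAAT) ahead of it.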

How the data were processed

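Total RNA of 3 MNNG/HOS sarcosphere cultures was labelled with Cy3 for NimbleGen one-colour arrays, per the labels' protocols. The authors deposited linear intensity values for 38572 features, 1 column per array. Their background correction, probe summary, normalization, centring and filters were not stated. Column medians of 383 (untreated), 363 (TGF-beta1) and 395 (hypoxia) led to their use as already normalized values. The lowest value is 50, and folds may be understated for the 2689 features that come within 10% of it. Precision is limited by the number of arrays.

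Features were named through the platform annotation's Entrez identifier (15623) or an unversioned RefSeq accession (593), and 22356 were not named. No feature had several symbols. Intensities were converted to log2, without a pseudocount, and averaged per gene (Python 3.11.15, pandas 2.3.3). All genes were processed together. Alternatives changed the scaling, the feature summary, the naming, the filter and the fold. All listed members are named, with the 2 largest differences per pathway list and treatment among genes past the filter, of which 1 is not reported here. CDKN1B, CCNL1, UBE2C and the markers of the cell line were named after their values were seen. The members and lists were chosen with earlier results of these data known.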

Additional observations from a re-analysis of the deposited data

How the results depend on the processing

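No paired analysis was possible because each condition has 1 array, and no array can be left out. Across the 3 scalings, 2 feature summaries and the other naming, 191 of 198 member values kept their call for TGF-beta1 minus untreated, 190 of 198 for hypoxia minus untreated and 197 of 198 for TGF-beta1 minus hypoxia, and 0 called values changed sign. Over these alternatives and the stricter filter the median of the members ranged from 0.44 to 0.53 with TGF-beta1 and from 0.38 to 0.50 for TGF-beta1 minus hypoxia. Under hypoxia it was 0.18, but 0.12 after median centring and 0.07 with both arrays at or above their median. At 2-fold the members higher were 5 with TGF-beta1, 0 under hypoxia and 4 for TGF-beta1 minus hypoxia, against 14, 3 and 13 at 1.5-fold. With both arrays required at or above their median, 9 members were higher with TGF-beta1, and for TGF-beta1 minus hypoxia 0 were lower. With no filter 1 was lower with TGF-beta1 (TFDP2) and 2 for TGF-beta1 minus hypoxia. Median centring left 0 members higher under hypoxia and loess centring 1, CDK4. With the brightest feature 1 member was lower under hypoxia, SKP2 (-0.64), and 12 were higher with TGF-beta1.

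Over all genes, 60.3% of the hypoxia calls were higher, against 46.6% after median centring and 48.6% after loess centring. For TGF-beta1 minus hypoxia 46.3% were, against 58.1% after median centring. No scaling moved the median of all genes by over 0.1 on the log2 scale. The cause of these shifts was not tested. The dim genes CCNE1, E2F8 and TFDP2 lay below the median on every array, which limits their differences, and 28 of the 33 members rest on 1 feature.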
